A study of Mus musculus with 2 samples.

Results

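The 32 genes described here encode lysosomal proteins: 10 proteases, 6 glycosidases, 3 phosphatase or lipid hydrolase genes, 3 activators and carriers, 6 membrane proteins, 3 proton pump genes and the transcription factor Tfeb. They were taken by symbol from the gene list of the matrices, and all 32 were among the 32285 genes listed. The list was chosen by gene name, with earlier results of these data already known. The 2 libraries were 10x Genomics 5′ single-cell RNA-seq libraries of live, CD45-sorted cells from hepatocellular carcinomas of MYC-ON mice. One library came from mice gavaged with DMSO and the other from mice gavaged with STK, an agent that the labels do not describe. Both groups shared the MYC-ON genotype, the tissue, the tumour type, the sort and one batch label. The labels do not name the promoter that drives MYC, the number of animals pooled, or their age or sex. With 1 library per group there was no replicate, so no p-value is given, and every interval below covers counting error only.

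Lysosomes are acidified compartments in which hydrolases break down proteins, glycans and lipids taken up by endocytosis, phagocytosis or autophagy. A proton-pumping ATPase sets their acidity, heavily glycosylated membrane proteins line them, and Npc1 and Npc2 pass cholesterol out of them. Transcription factors of the MiT/TFE family, Tfeb among them, activate many lysosomal genes through a short palindromic element, and macrophages are known for a large lysosomal compartment.

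The element written TCACGTG is the core of the site that these factors are known to bind, so the promoters of members that hold it are shown first. Among the members at least 1.5 times higher in the STK library in a macrophage or monocyte class (values below), 4 held it in the 250 bases before a RefSeq start. They are printed 5′ to 3′ on the gene's strand from the RefSeq table of GRCm38.p6, with TCACGTG or its reverse complement CACGTGA in capitals. Ctsd lies at chr7:142387828-142388077 on the minus strand, Lgmn at chr12:102439093-102439342 on the minus strand, Glb1 at chr9:114400828-114401077 on the plus strand and Gla at chrX:134601006-134601255 on the minus strand.
Ctsd: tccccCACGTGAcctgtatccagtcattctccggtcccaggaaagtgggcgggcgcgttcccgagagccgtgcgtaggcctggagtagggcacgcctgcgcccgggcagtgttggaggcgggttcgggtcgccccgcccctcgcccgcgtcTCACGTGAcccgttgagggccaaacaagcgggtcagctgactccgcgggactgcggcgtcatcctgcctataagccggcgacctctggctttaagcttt
Lgmn: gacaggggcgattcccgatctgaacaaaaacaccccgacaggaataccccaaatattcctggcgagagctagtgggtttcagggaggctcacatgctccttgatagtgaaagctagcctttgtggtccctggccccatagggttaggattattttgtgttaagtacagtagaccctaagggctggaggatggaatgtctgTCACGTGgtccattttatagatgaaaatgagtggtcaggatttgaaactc
Glb1: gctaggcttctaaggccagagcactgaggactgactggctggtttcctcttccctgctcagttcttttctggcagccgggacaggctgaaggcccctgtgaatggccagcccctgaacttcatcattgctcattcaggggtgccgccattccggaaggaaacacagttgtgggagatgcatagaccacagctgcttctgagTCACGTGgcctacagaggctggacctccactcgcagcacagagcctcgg
Gla: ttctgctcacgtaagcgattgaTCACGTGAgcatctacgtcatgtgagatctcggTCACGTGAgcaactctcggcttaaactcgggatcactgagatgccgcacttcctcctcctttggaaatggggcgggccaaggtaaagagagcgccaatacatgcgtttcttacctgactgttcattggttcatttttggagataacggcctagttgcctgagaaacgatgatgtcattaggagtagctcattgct
The Ctsd window held the element near its far end, at 245 bases before the start, and again as an overlapping pair of both strands whose copies begin 99 and 98 bases before it. In Gla 2 such overlapping pairs lay between 228 and 194 bases before the start, in Lgmn the single copy lay at 50 bases and in Glb1 at 49 bases. These RefSeq starts lie 211, 721, 120 and 2 bases inside the longer GENCODE gene models of Ctsd, Lgmn, Gla and Glb1. Lgmn has another RefSeq start, 85 bases inside its GENCODE model, and the window of that outer start did not hold TCACGTG. Across the RefSeq table, TCACGTG on either strand was in 3.13% of 32851 windows of this length and in the windows of 3.58% of 27025 genes. It was in the windows of 7 of the 27 members with an entry: Ctsa, Ctsd, Gaa, Gla, Glb1, Lamp1 and Lgmn. Of these, Ctsa, Gaa and Lamp1 were not 1.5 times higher in any macrophage or monocyte class. Acp5, Cd63, Ctsc, Ctsl and Gusb were 1.5 times higher in such a class and did not hold TCACGTG. The shorter CACGTG, which TCACGTG contains, was in 6.02% of windows and in those of 8 of the 27 members, Ctsl being the other. The Cd63 window held neither. Asah1, Npc1, Atp6v0d2, Ctsh and Ctsb had no entry. A match describes these letters and is not evidence of binding.

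After filtering, 11152 cells of the DMSO library and 10846 of the STK library were kept, with median depths of 4471.5 and 4930.5 UMIs per cell. Cells were put into 15 classes by marker genes, none of which is one of the 32. A C1q macrophage is a cell with at least 4 of the 5 markers C1qa, C1qb, C1qc, Adgre1 and Csf1r. The gate is a cut: 457 DMSO and 359 STK cells had exactly 4 of these markers, before other gates were applied, and 386 and 342 had 3. The stricter gate used below raised the marker thresholds of the gates together. A cell that had met 2 gates could then enter a class, so a stricter class was not always a subset. For Ctsd in migratory dendritic cells the main gate gave 70 DMSO and 44 STK UMIs and the stricter gate 75 and 97. The class called "C1q and classical monocyte" met the macrophage and the classical monocyte gate together. The 2 libraries differed in sex: of C1q macrophages with RNA of one sex, 10.3% were female (an Xist UMI) with DMSO and 74.9% with STK. The heat shock and dissociation list was a larger share of UMIs with DMSO in every class except hepatocyte or tumour cells (0.716% and 0.964%), with Hspa1a at 866 CPM against 73.8 CPM in C1q macrophages, CPM being a gene's UMIs per 1000000 UMIs of the class. Barcodes shared by both libraries numbered 183 among the kept cells. Of the kept cells, 24.6% (DMSO) and 18.9% (STK) met no gate, or met the NK gate with Cd3 RNA but not the T cell gate. Also outside the 15 classes were 571 and 721 T cells of no T cell class and 189 and 287 with NK markers. Cells of 2 lineages (523 and 723) and of other mixes of myeloid gates (232 and 211) were left out too. The sort for CD45 did not remove all other cells: 1139 and 807 cells met the hepatocyte or tumour gate, in which Ptprc, the gene of CD45, read 3.36 and 3.91 CPM against 459 and 396 in C1q macrophages.

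The 32 genes together supplied 3.35% of all UMIs of C1q macrophages with DMSO (95% interval 3.33 to 3.36) and 4.05% with STK (4.03 to 4.07). These were the highest shares of the 15 classes in each library. Cells meeting both gates followed at 2.95% and 3.31%, then plasmacytoid dendritic cells (1.94% and 1.99%) and classical (1.83% and 2.13%) and non-classical monocytes (1.66% and 2.09%), where the order of these last 3 was not the same in both libraries. Type 1 dendritic cells (1.14% and 1.18%), migratory dendritic cells (1.05% and 1.10%) and type 2 dendritic cells (0.887% and 0.930%) lay near one another. Neutrophils had 0.626% and 0.548%. All 6 lymphoid and tumour classes lay below these: B cells had 0.307% and 0.361%, and CD8 T, conventional CD4 T, regulatory T, NK and hepatocyte or tumour cells lay between 0.25% and 0.310%. Psap and Ctsb alone supplied 43.2% and 42.2% of the 32 genes' UMIs in C1q macrophages, so the sum follows these 2 genes closely. Without them the remaining 30 genes made 1.90% and 2.34% of UMIs.

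**Figure D1:**
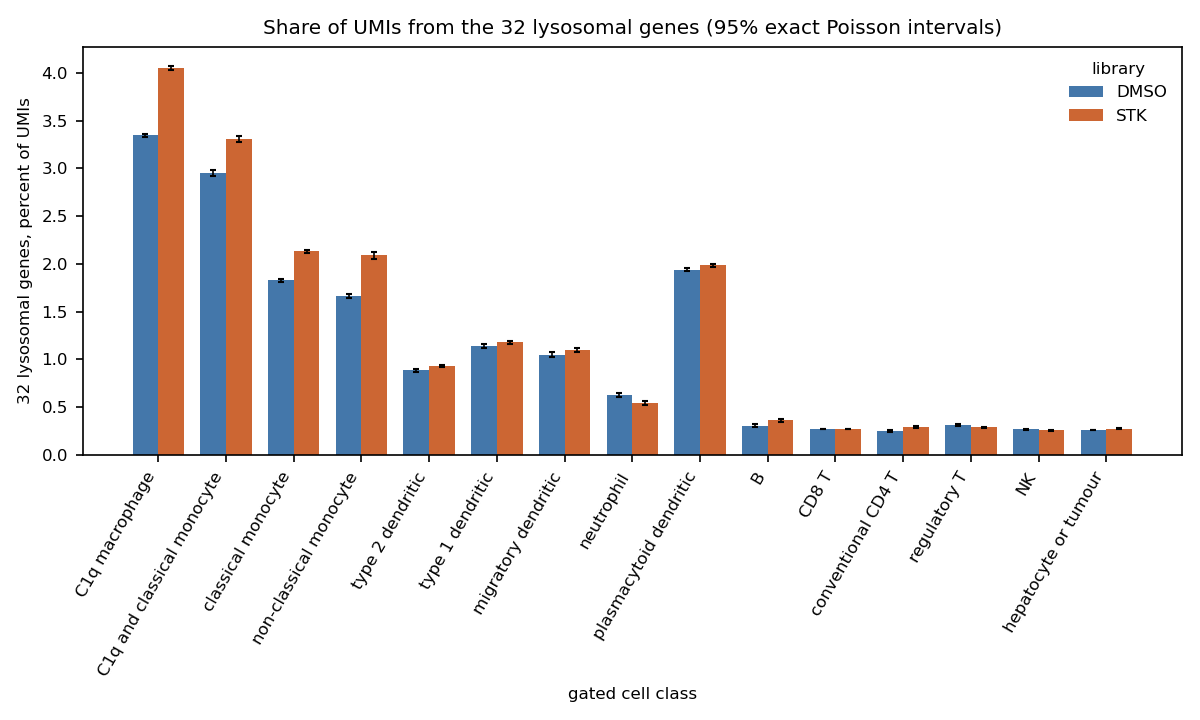
Share of all UMIs, in percent, that came from the 32 lysosomal genes in each of the 15 gated classes, with the DMSO and STK libraries side by side and 95% exact Poisson intervals as error bars. C1q macrophages stand highest in each library (3.35% and 4.05%), and the lymphoid and hepatocyte or tumour classes stay below 0.4%.

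Of the 32 genes, 13 read highest in C1q macrophages in both libraries and a further 5 in the STK library only. The highest class was the same in both libraries for 27 of 32. Plasmacytoid dendritic cells were highest for 6 genes (DMSO) and 5 (STK), type 1 dendritic cells for 3 and 2, and migratory dendritic cells for 2 and 2. Many of these first places were narrow: the leading class was 1.10 times or less above the next in at least one library for such genes as Npc2, Lamp2, Lamp1 and Asah1. Values below are CPM within a class and compare 1 gene between classes.

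**Figure D2:**
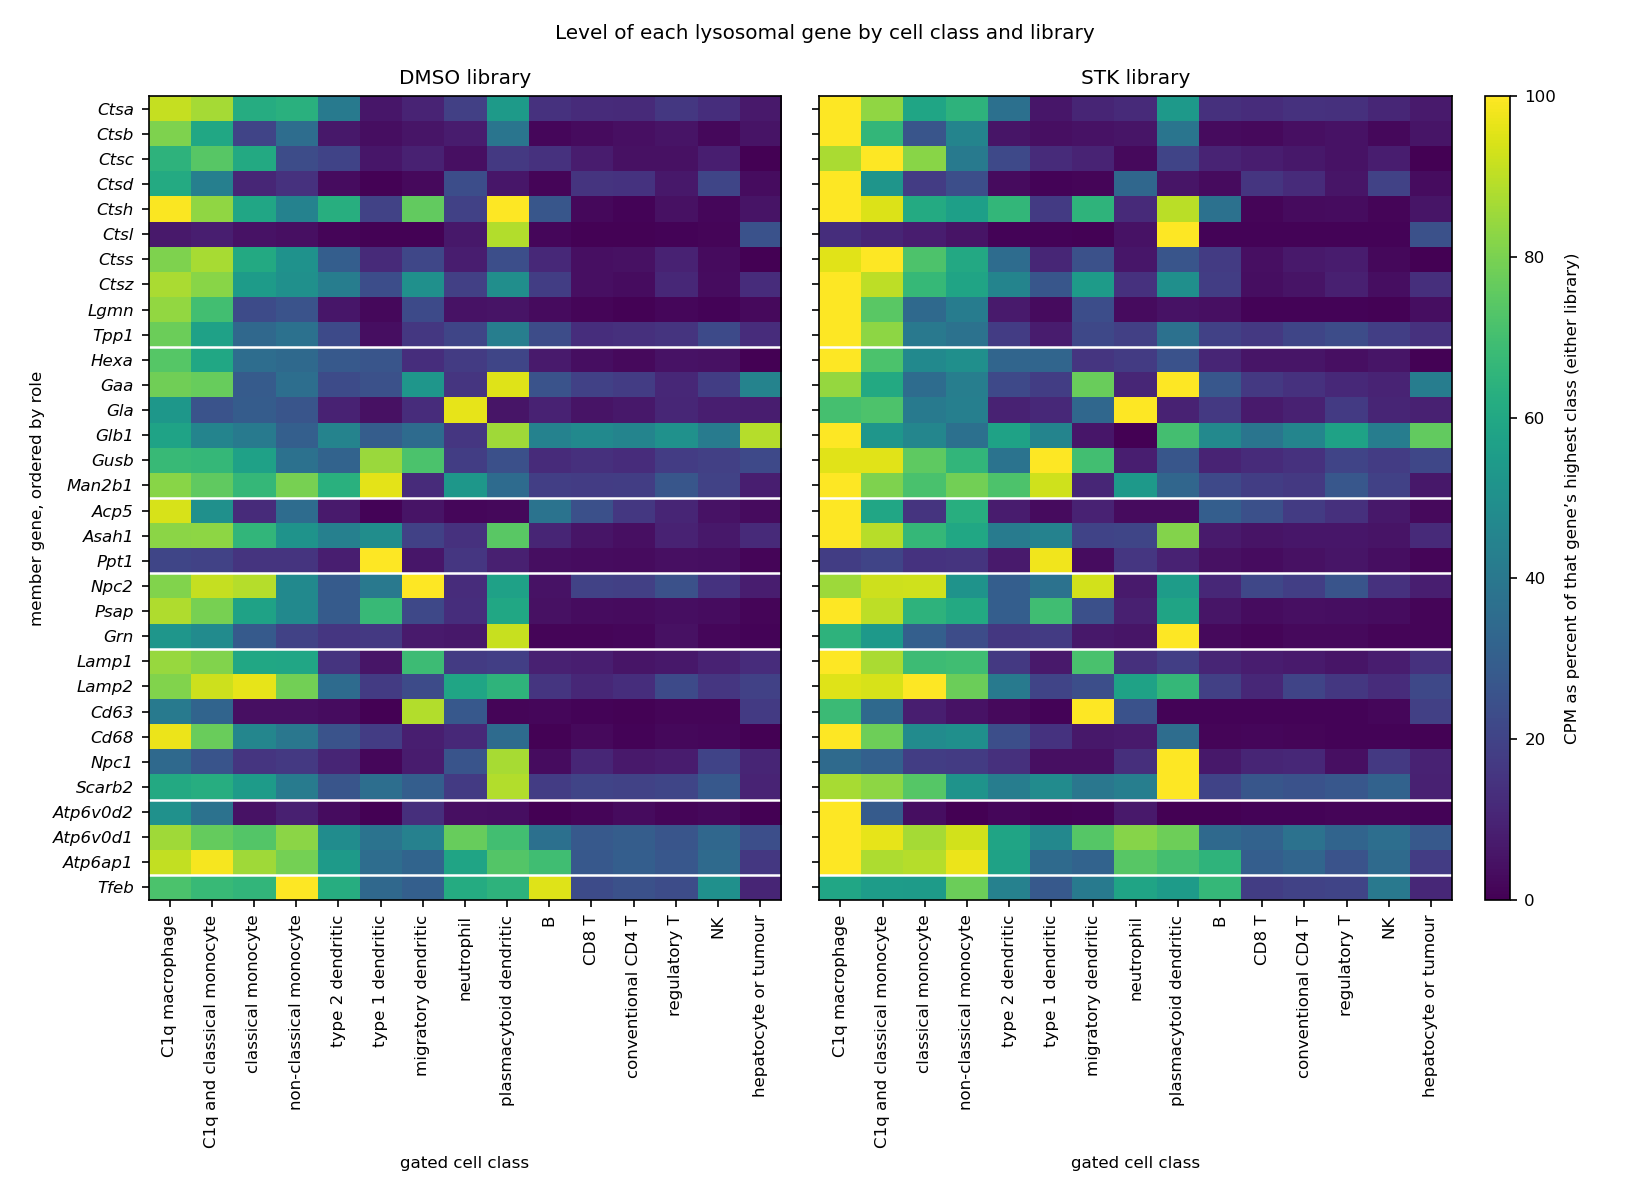
Heat map of each gene's CPM in the 15 classes for the DMSO (left) and STK (right) libraries, as a percent of that gene's own highest value, with genes ordered by role and white lines between roles. In the C1q macrophage column 13 genes (DMSO) and 18 genes (STK) are brightest, whereas Ctsl, Grn, Npc1 and Scarb2 are brightest in plasmacytoid dendritic cells, Ppt1 in type 1 dendritic cells, Cd63 in migratory dendritic cells and Gla in neutrophils.

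Among the proteases, the aspartic protease cathepsin D (Ctsd; GRCm38 chr7:142375911-142388038) read 2016 CPM (DMSO) and 3304 CPM (STK) in C1q macrophages. That was 5.64 and 5.60 times its level in classical monocytes (357 and 590.0 CPM). Outside the macrophage gates it was highest in neutrophils (778 and 1099.9 CPM). NK cells had 689 and 656 CPM, non-classical monocytes 471 and 788 CPM and CD8 T cells 494 and 513 CPM. Type 1 dendritic cells had 24.4 and 37.6 CPM, the lowest in each library. The cysteine proteases Ctsb (6166 and 7661 CPM), Ctsz (1470.4 and 1686 CPM) and Ctsh (549 and 551 CPM) and the asparaginyl endopeptidase Lgmn (1529 and 1823 CPM), which processes cathepsins, were also highest in C1q macrophages on the mean of both libraries. The carboxypeptidase Ctsa, which protects other lysosomal enzymes, had 772 and 845 CPM there, and the tripeptidyl peptidase Tpp1 123 and 158 CPM. Ctsc, which activates granule serine proteases, and Ctss, known for processing the invariant chain of class II molecules, were highest in cells meeting both gates, at 954 and 1288 CPM for Ctsc and 2813 and 3229.6 CPM for Ctss. Ctsl departed from all of these. It read 1929.5 and 2179.7 CPM in plasmacytoid dendritic cells, 12.6 times (95% interval 11.6 to 13.8) and 7.53 times (7.12 to 7.97) its level in C1q macrophages. Hepatocyte or tumour cells came second with 546 and 544 CPM.

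The glycosidases were less uniform. Hexa, a subunit of the hexosaminidase that degrades gangliosides, was highest in C1q macrophages at 386 and 526 CPM. Gusb, the β-glucuronidase, was highest in type 1 dendritic cells (216 and 254 CPM), as was the α-mannosidase Man2b1 on the mean of both libraries (338 and 327 CPM). Gaa, which degrades glycogen, had 57.3 and 60.3 CPM in plasmacytoid dendritic cells. Gla, the α-galactosidase that degrades globotriaosylceramide, was highest in neutrophils at 122 and 126 CPM, 1.83 and 1.42 times its level in C1q macrophages. Those neutrophil values rest on 66 and 59 UMIs. Glb1, the β-galactosidase, was low throughout: on the mean of both libraries it was highest in hepatocyte or tumour cells (30.9 and 26.5 CPM), and in C1q macrophages it had 20.3 and 34.9 CPM.

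Acp5, the tartrate-resistant acid phosphatase known from osteoclasts, read 675 and 718 CPM in C1q macrophages but 87.0 and 109 CPM in classical monocytes. Its lymphoid levels were not low: B cells had 275 and 213 CPM and CD8 T cells 174 and 174 CPM, both above classical monocytes in each library. The thioesterase Ppt1, which removes palmitate from proteins, had 952 and 931 CPM in type 1 dendritic cells. This was 4.78 times (4.34 to 5.27) and 5.36 times (4.92 to 5.84) its level in C1q macrophages. The acid ceramidase Asah1 had 269 and 327 CPM in C1q macrophages and 244 and 267 CPM in plasmacytoid dendritic cells.

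Psap, the precursor of the saposins that activate sphingolipid hydrolases, read 8290.1 and 9424 CPM in C1q macrophages. In type 1 dendritic cells it had 6338 and 6547 CPM, 2.36 and 2.32 times its level in type 2 dendritic cells. There Psap and Ctsb together supplied 58.1% of the 32 genes' UMIs in each library. The progranulin gene Grn was highest in plasmacytoid dendritic cells (2222 and 2425 CPM), 1.75 and 1.55 times C1q macrophages. Npc2, the soluble cholesterol carrier, had 1938 and 1807 CPM in migratory dendritic cells, 1.10 and 1.00 times the next class.

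Of the membrane proteins, Lamp1 (1129.7 and 1335 CPM) and Cd68 (1345 and 1385 CPM), a common macrophage marker, were highest in C1q macrophages. Cd68 had 4.17 and 7.23 CPM in hepatocyte or tumour cells. Lamp2 was highest in classical monocytes (287 and 299 CPM), by 1.04 and 1.05 times. The tetraspanin Cd63 was highest in migratory dendritic cells at 1322 and 1495 CPM, 2.15 and 1.46 times C1q macrophages, and it was at 62.8 and 126 CPM in classical monocytes. The cholesterol exporter Npc1 had 154 and 177 CPM in plasmacytoid dendritic cells, 2.55 and 2.91 times C1q macrophages. Scarb2, the receptor that carries glucocerebrosidase to lysosomes, was also highest there, at 155 and 175 CPM.

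Of the 3 proton pump genes, Atp6v0d2 was restricted to few classes and the other two were found in all. Atp6v0d2, an isoform of the pump's d subunit known from osteoclasts and macrophages, had 46.6 and 91.8 CPM in C1q macrophages and 4.47 and 3.55 CPM in classical monocytes, ratios of 10.4 (6.32 to 18.3) and 25.9 (14.7 to 50.5). It reached 50 UMIs over both libraries in 2 of the 15 classes. Its paralog Atp6v0d1 read 200.2 and 233 CPM in C1q macrophages and stayed between 55.9 and 233 CPM in every class and library. The accessory subunit gene Atp6ap1 had 189.5 and 209 CPM in C1q macrophages and 34.1 and 36.8 CPM in hepatocyte or tumour cells. Tfeb was highest in non-classical monocytes, at 80.9 and 62.8 CPM, with B cells next at 77.1 and 53.9 CPM.

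As a description of likeness, the level of each gene was correlated over the 15 classes with the sum of the other 31, on a log scale and within a library. The classes share a library and differ in depth. Asah1, with Pearson r of 0.952 (DMSO) and 0.962 (STK), Cd68 (0.95 and 0.97) and Grn (0.948 and 0.948) followed the rest most closely. Glb1 (-0.048 and 0.130), Acp5 (0.196 and 0.367), Ctsd (0.214 and 0.268), Cd63 (0.383 and 0.449) and Ctsl (0.380 and 0.443) followed it least.

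Between the libraries, C1q macrophages of STK-treated mice carried more RNA of these genes as a share of their UMIs. Of the 32 members, 30 read above their DMSO level, where 47.9% of all measured genes did, and 5 were at least 1.5 times higher. The 5 were Atp6v0d2, Ctsl, Glb1, Cd63 and Ctsd, spread over 4 of the roles. None was 1.5 times lower. Of all 8593 genes with at least 50 UMIs in this class, 5.48% were at least 1.5 times higher and 5.62% lower, and the members' 5 of 32 and 0 of 32 are read against these shares. The median log2 ratio was 0.25 for the members and -0.016 for all genes. The 95% interval lay above equality for 26 members and below it for 2, against 13.4% and 14.2% of all genes. The summed share was 1.21 times higher (1.2 to 1.22).

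Atp6v0d2 rested on 170 and 469 UMIs and read 46.6 CPM with DMSO and 91.8 CPM with STK, a ratio of 1.97 (1.65 to 2.37). Ctsl read 153 and 289 CPM, a ratio of 1.89 (1.72 to 2.09), although its STK level here was still far under that of plasmacytoid dendritic cells. The Glb1 ratio was 1.72 (1.30 to 2.29), from 74 and 178 UMIs. Cd63 read 614 and 1022 CPM, a ratio of 1.66 (1.58 to 1.75), and Ctsd 2016 and 3304 CPM, a ratio of 1.64 (1.59 to 1.68). The next members, Scarb2 (1.43), Gusb (1.42), Hexa (1.36) and Ctsc (1.35), lay just inside the threshold. At the other end Ctsh (1.01), Npc1 (1.01) and Cd68 (1.03) read nearly the same in both libraries, and Ppt1 (0.873) and Tfeb (0.826, with 58.1 and 48.0 CPM) read lower in the STK library. By role, the summed ratio was 1.32 for the glycosidases, 1.27 for the proteases, 1.22 for the proton pump genes, 1.21 for the membrane proteins, 1.14 for the activators and carriers, and 1.07 for the phosphatase and lipid hydrolases. Of the 7 members whose promoter window held TCACGTG, Ctsd and Glb1 were past 1.5-fold in this class, and Gla (1.33), Lgmn (1.19), Lamp1 (1.18), Ctsa (1.10) and Gaa (1.07) were not.

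**Figure D3:**
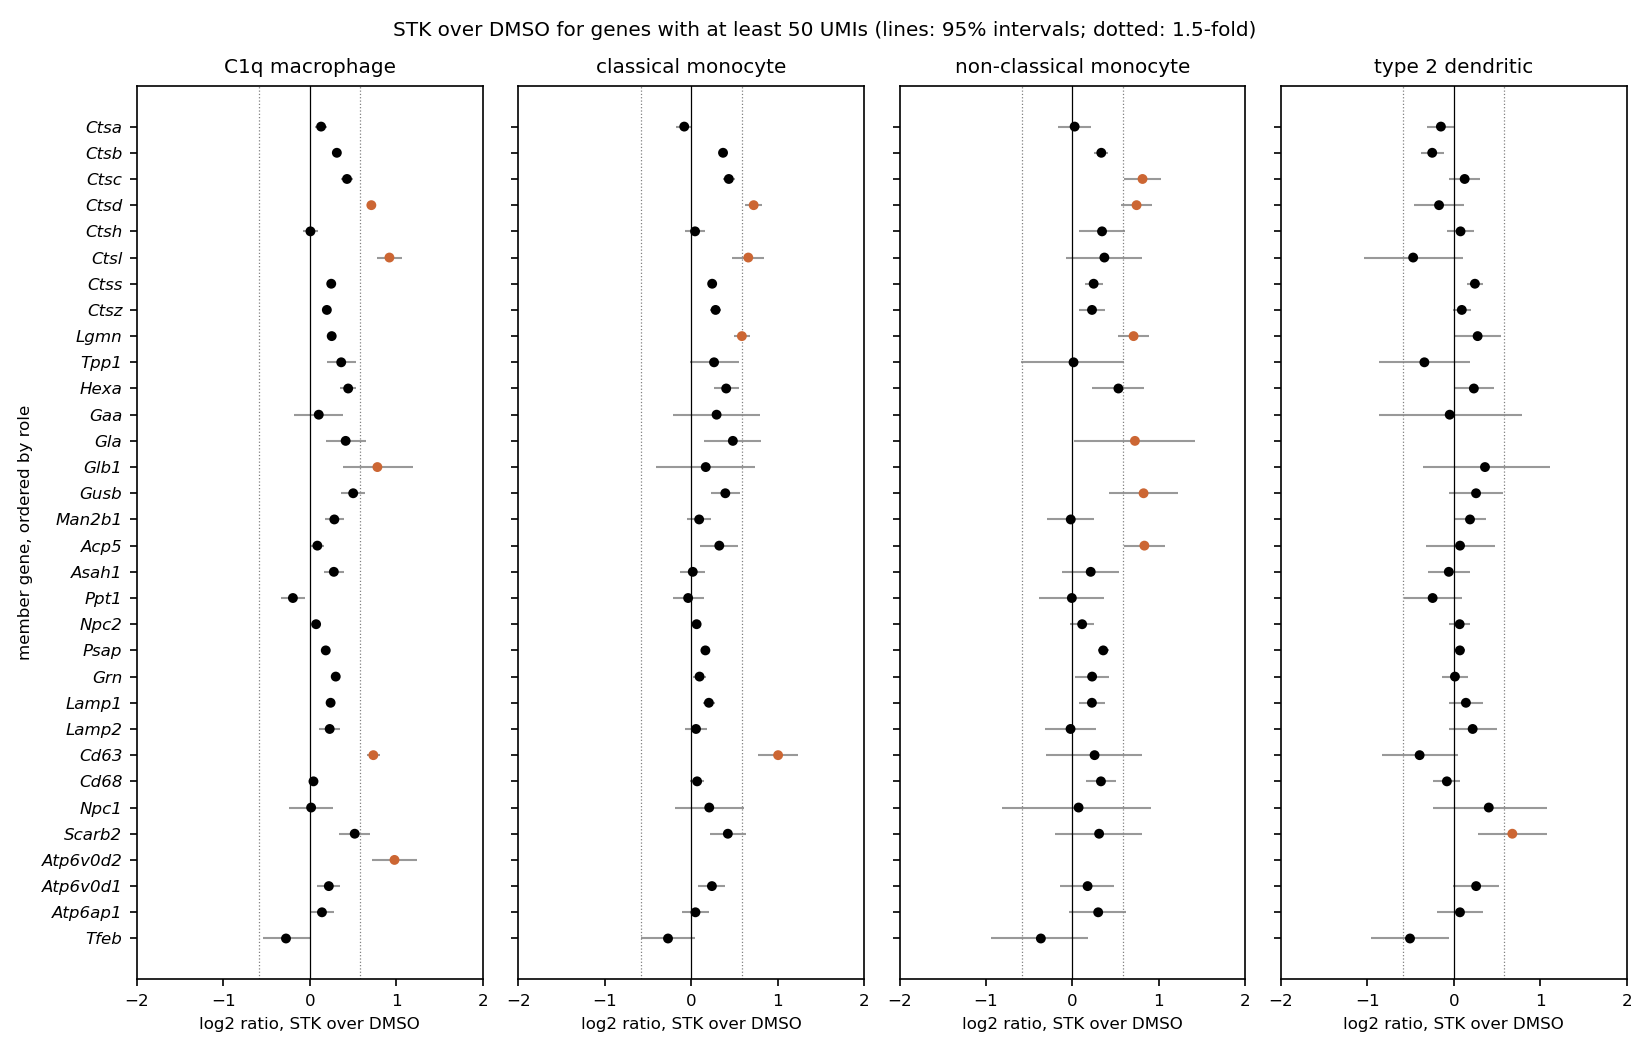
Log2 ratio of STK over DMSO for each member with at least 50 UMIs in C1q macrophages, classical monocytes, non-classical monocytes and type 2 dendritic cells, with 95% counting intervals as lines and dotted lines at 1.5-fold; orange points pass 1.5-fold. In the first panel 30 of 32 points lie right of equality, where 47.9% of all measured genes did. In the last panel they scatter around it (19 of 30 to the right, where 44.3% of all measured genes were).

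The cells of the 2 libraries differed in sex, so the comparison was repeated within cells of one sex. Within female C1q macrophages (29 DMSO and 284 STK cells), 14 members were at least 1.5 times higher and 0 lower, where 15.3% and 14.3% of all measured genes were, and the summed share was 1.39 times higher (1.35 to 1.43). Within male cells (252 and 95), 4 members were higher and 1 lower, where 6.49% and 8.48% of all genes were, and the summed share was 1.09 times higher (1.08 to 1.10). The 4 were Atp6v0d2 (2.08), Glb1 (2.14), Scarb2 (1.59) and Ctsl (1.56), and the lower one was Tfeb (0.650). Ctsd and Cd63 passed 1.5-fold within female cells (1.83 and 2.15) but not within male cells (1.31 and 1.34), and Ctsl read 1.27 within female cells. In the STK library, female C1q macrophages had 3602 CPM of Ctsd and male ones 2595 CPM, a ratio of 1.39 (1.33 to 1.45), whereas in the DMSO library the ratio was 0.996. The female DMSO cells hold few UMIs: Atp6v0d2 had 4 and Glb1 had 0. The Glb1 ratio of 2.18 sets the 0 UMIs of the female DMSO cells to a floor of 3 and is not a lower bound. Gla, which is X-linked like Lamp2 and Atp6ap1, had 4 UMIs there, and its ratio of 4.51 rests on them; within male cells Gla read 0.823, the opposite direction. Tfeb read 1.43 within female cells, from 7 DMSO UMIs, so its direction turned too.

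**Figure D4:**
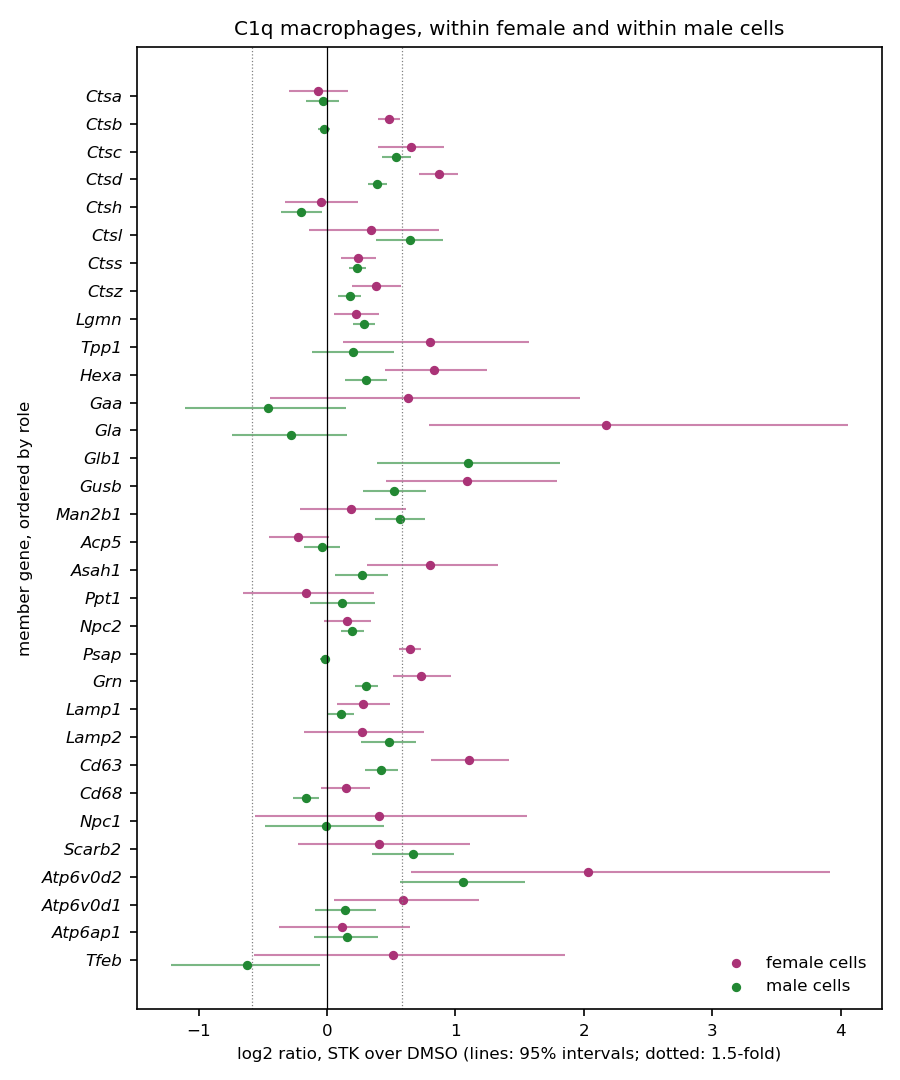
Log2 ratio of STK over DMSO in C1q macrophages for each of the 32 genes within female cells (magenta, 29 against 284 cells) and within male cells (green, 252 against 95 cells), with 95% counting intervals; Glb1 has no magenta point because it had 0 UMIs in female DMSO cells. Atp6v0d2 lies right of 1.5-fold in both, whereas Ctsd and Cd63 pass it only in magenta (1.83 and 2.15).

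C1q macrophages also differed between the libraries in how many held a UMI of certain markers, counted without thinning although the STK cells were deeper. Cells with a UMI of Spp1 or Arg1, genes known from tumour macrophages, numbered 61 of 574 in the DMSO and 127 of 603 in the STK library. They carried more lysosomal RNA in each, 3.97% against 3.25% of UMIs without such a UMI (DMSO) and 4.71% against 3.84% (STK). Atp6v0d2 read 111 CPM (DMSO) and 161 CPM (STK) in these cells and 36.8 and 69.7 CPM in the others, and Ctsd read 2937 and 4820 CPM against 1878 and 2821 CPM. Cells with at least 2 of the Kupffer cell markers Clec4f, Timd4, Vsig4, Cd5l and Marco numbered 15 and 49, and their Ctsd level was 3447 and 5934 CPM. With both kinds of cell left out, Ctsd read 1.47 times higher in the STK library and so fell short of the threshold, while Atp6v0d2, Ctsl, Cd63 and Glb1 stayed past it. Other RNA moved with the libraries too: the heat shock and dissociation list made 1.79% of UMIs in DMSO and 1.16% in STK C1q macrophages, with 2 of its 15 genes at least 1.5 times higher and 8 lower. The median depth of these cells was 6191 and 7977 UMIs, and the summed Kupffer cell markers read 384 and 746 CPM. The part of heat shock RNA in the result was not tested.

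Depth alone changes how many cells show a gene, so each C1q macrophage was also thinned to 1000 UMIs, which left out 10 DMSO and 2 STK cells. After thinning, an expected 13.6% (10.9 to 16.8) of DMSO and 21.5% (18.2 to 25) of STK cells held a Ctsl UMI, against 47.6% and 71.5% before thinning. Cd63 was found in 32.5% (28.6 to 36.5) and 44.3% (40.2 to 48.3), and Ctsd in 69.6% (65.5 to 73.3) and 74.9% (71.2 to 78.3). For Atp6v0d2 the shares were 4.55% (3.03 to 6.68) and 6.22% (4.37 to 8.39), and for Glb1 2.08% and 3.37%, in each case with overlapping intervals. In CD8 T cells all 32 members together made 0.271% (DMSO) and 0.270% (STK) of UMIs, and median depths were 4013.5 and 3612 UMIs. The thinned shares in CD8 T cells were 1.14% and 1.45% for Cd63, 1.79% and 2.29% for Ctsl and 0.125% and 0.116% for Atp6v0d2. The thinned Glb1 share there was 1.49% and 1.26%, close to that in macrophages, and Ctsd at 36.5% and 39.6% was far above what the other genes showed.

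In classical monocytes 28 of 31 measured members read above their DMSO level, where 47.0% of all measured genes did. At least 1.5 times higher were 4 members and lower 0, where 5.67% of all genes were higher and 7.24% lower. The median log2 ratio of the members was 0.24 against -0.022 for all genes, and the summed share was 1.17 times higher (1.15 to 1.18). Cd63 read 62.8 and 126 CPM (ratio 2.01, 1.71 to 2.36), Ctsd 357 and 590.0 CPM (1.65, 1.54 to 1.77), Ctsl 110 and 174 CPM (1.58, 1.39 to 1.80) and Lgmn 415 and 624 CPM (1.5, 1.41 to 1.60). Within female cells (55 and 237) 4 of 29 measured members were higher and 0 lower, where 12.1% and 10.4% of all genes were. Within male cells (305 and 79) 9 of 30 were higher and 0 lower, where 10.1% and 12.3% were, and the summed ratios were 1.27 and 1.26. Ctsd (1.69 and 2.15), Ctsl (2.22 and 2.25) and Lgmn (1.81 and 2.0) passed within both sexes. Cd63 read 1.28 within female and 4.55 within male cells, and with a stricter gate it read 1.25. Lgmn read 1.49 without the barcodes found in both libraries. Summed C1q macrophage markers read 696 and 838 CPM in these monocytes, and heat shock RNA 2.21% and 1.10% of UMIs; their part in the result was not tested.

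Cells that met both the macrophage and the classical monocyte gate had 1 of 31 measured members higher and 0 lower, where 6.59% and 6.18% of all genes were. That member was Gla, at 32.6 and 90.9 CPM (31 and 114 UMIs), a ratio of 2.79 (1.86 to 4.30). Atp6v0d2 read 34.7 and 26.3 CPM in these cells, a ratio of 0.760 (0.454 to 1.27). The count depended on the cells taken: with a stricter gate 7 of 25 measured members were higher and 0 lower, where 11% and 9.98% of all genes were, and the summed ratio went from 1.12 to 1.30. Within female cells (5 and 66) 11 of 27 were higher and 1 lower, where 15.8% and 14.4% were, with a summed ratio of 1.34. Male cells (64 and 32) had 2 of 27 higher and 0 lower, where 9.92% and 6.82% were, with a summed ratio of 1.21. Gla had 0 DMSO and 58 STK UMIs within female cells. It had 19 and 30 UMIs within male cells, too few to count as measured there. In non-classical monocytes, which patrol the vessel wall, 6 of 29 measured members were higher and 0 lower, where 6.99% and 9.53% of all genes were. They were Acp5 (253 and 451 CPM, ratio 1.78), Gusb (94.7 and 168 CPM, 1.77), Ctsc (300.3 and 527 CPM, 1.75), Ctsd (471 and 788 CPM, 1.67), Gla (33.2 and 54.8 CPM, 1.65) and Lgmn (469 and 765 CPM, 1.63). The summed share was 1.26 times higher (1.23 to 1.28). With a stricter gate Gusb alone of the 6 stayed at 1.5-fold: Acp5 read 1.49, Lgmn 1.44, Ctsc 1.39, Ctsd 1.13 and Gla 0.929. Within female cells (48 and 55) 7 of 22 measured members were higher and 0 lower, where 13.4% and 10.6% of all genes were. Within male cells (84 and 14) 12 of 21 were higher and 0 lower, where 16.0% and 15.8% were. Summed C1q macrophage markers read 1023 and 1069.6 CPM in non-classical monocytes and heat shock RNA made 1.71% and 0.957% of UMIs, and their part in the result was not tested.

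The dendritic classes showed smaller differences in the sum. In type 2 dendritic cells, 1 of 30 measured members was higher and 0 lower, where 5.76% and 9.43% of all genes were, and the summed ratio was 1.05 (1.03 to 1.07). That member was Scarb2, at 46.3 and 74.0 CPM (ratio 1.60, 1.22 to 2.12), which read 1.26 within male cells and 1.44 with a stricter gate. Heat shock RNA made 1.79% and 0.913% of UMIs in this class, and the haemoglobin gene Hbb-bs had 654 UMIs with DMSO and 0 with STK; their part in the result was not tested. Ctsd (0.888), Ctsl (0.722) and Cd63 (0.760), all high in STK macrophages and monocytes, read below equality in these cells, though each interval included 1. Within female type 2 dendritic cells (10 and 128) 3 of 24 measured members were higher and 4 lower, where 18.1% and 13.6% of all genes were, and within male cells (109 and 66) 0 were higher and 0 lower of 26, where 7.14% and 9.03% were. Type 1 dendritic cells had 2 of 23 higher and 0 lower, where 5.45% and 6.26% of all genes were: Ctsc at 77.1 and 161 CPM (2.08, 1.61 to 2.71) and Ctsd at 24.4 and 37.6 CPM (1.54, with an interval that included 1). Migratory dendritic cells had 3 of 28 higher (Gla 2.67, Acp5 1.75 and Atp6v0d1 1.67) and 2 lower (Ctsd 0.532 and Ppt1 0.534), where 6.18% and 6.32% of all genes were. Ctsd there read 85.6 and 45.5 CPM, but neither lower call held with a stricter gate, where Ctsd read 1.10 and Ppt1 0.973, and Atp6v0d1 also fell short there at 1.34. In plasmacytoid dendritic cells, 1 of 31 was higher (Gla, 7.16 and 12.1 CPM, with an interval that included 1) and 1 lower (Cd63, 20.5 and 13.4 CPM, which read 1.04 with a stricter gate and 0.886 without Scrublet doublets), where 4.44% and 4.84% of all genes were.

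In neutrophils the direction of the sum was the opposite: it read 0.875 times its DMSO share (0.831 to 0.921). Without Psap and Ctsb the sum of the remaining 30 genes read 0.951 (0.895 to 1.01), with an interval that included 1. Of 23 measured members 1 was higher (Scarb2, 29.6 CPM in DMSO and 75 CPM in STK) and 5 lower (Npc2, Lgmn, Ctsh, Cd68 and Ctsa, with ratios from 0.558 to 0.627), where 7.74% and 11.1% of all genes were. Npc2 read 249.5 CPM with DMSO and 139 CPM with STK. This direction depended on how cells were weighted: as a mean of per-cell values the summed ratio was 1.07, with 3 members higher and 0 lower, where 9.29% and 7.87% of all genes were, and the median cell held 0.437% and 0.507% lysosomal UMIs. Neutrophil granule RNA made 10.3% of UMIs in DMSO and 13.1% in STK neutrophils, with 4 of its 6 genes at least 1.5 times higher. Summed C1q macrophage markers read 249.5 CPM in DMSO and 180.1 CPM in STK neutrophils, and the summed ratio within female and male cells (8 and 16, 48 and 14) was 0.475 and 0.691; their part in the result was not tested.

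The lymphoid classes carry little of this RNA, and macrophage RNA differed between the libraries in several of them. Conventional CD4 T cells had 7 of 23 measured members higher and 0 lower, where 6.76% and 8.14% of all genes were: Ctsl, Ctss, Ctsz, Grn, Hexa, Lamp2 and Tpp1, with ratios from 1.51 to 2.18. Ctss read 141 and 218 CPM in them. In the same cells the summed C1q macrophage markers read 28.3 and 59.8 CPM (4 of 5 and 5 of 5 with a UMI, Adgre1 being at 0 in the DMSO library), and the macrophage and neutrophil gene Lyz2 109 and 259 CPM. With a stricter gate 2 members were higher and 0 lower, where 6.21% and 8.32% of all genes were, and the summed ratio of 1.16 became 1.03 within female and 0.993 within male cells. Regulatory T cells had 2 of 29 higher (Gla and Tpp1) and 5 lower (Asah1, Cd63, Cd68, Grn and Lgmn), where 4.40% and 7.78% of all genes were. Grn read 105 and 63.7 CPM there, Lyz2 134 and 36.0 CPM, and the summed C1q macrophage markers 34.7 and 29.8 CPM, with Adgre1 and Csf1r at 0 in the STK library. With a stricter gate regulatory T cells had 5 members higher and 0 lower, where 4.44% and 7.21% of all genes were, so the direction turned, and Cd63 read 1.39. CD8 T cells had 0 of 31 higher and 2 lower (Cd68 0.661 and Ctsh 0.593), where 4.34% and 4.70% of all genes were, beside summed macrophage markers of 62.1 and 46.5 CPM. Within female CD8 T cells (78 and 577) 10 of 27 were higher and 0 lower, where 18.4% and 9.09% were, and within male cells (467 and 287) 0 of 29 were higher and 3 lower, where 5.91% and 6.68% were. NK cells had 0 of 31 higher and 2 lower (Cd68 0.587 and Gaa 0.557), where 4.23% and 6.56% were, with Lyz2 at 145 and 87.4 CPM and the summed macrophage markers at 35.8 and 39.0 CPM. Female NK cells (59 and 415) had 3 of 24 measured members higher and 0 lower, where 13.8% and 9.29% were. Male NK cells (315 and 123) had 3 of 24 higher and 1 lower, where 8.5% and 12.9% were. B cells had 3 of 15 higher (Npc2 2.23, Ctsd 2.02 and Ctsb 1.61) and 0 lower, where 9.13% and 10.3% were, with Lyz2 at 43.2 and 293 CPM and the summed macrophage markers at 58.6 and 53.9 CPM. With a stricter gate 1 of 13 was higher and 0 lower, where 9.64% and 8.27% were: Ctsb passed at 2.29, whereas Npc2 read 1.30 and Ctsd 1.26. The summed B cell ratio of 1.18 became 1.03 within female (26 and 65) and 0.882 within male cells (31 and 13). Ctsb read 0.901 within female cells, from 8 and 28 UMIs, and 1.11 within male cells, from 9 and 4. The part of macrophage RNA in these lymphoid results was not tested.

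Hepatocyte or tumour cells had 2 of 31 members higher and 0 lower, where 4.81% and 2.80% of all genes were. They were Cd68 (4.17 and 7.23 CPM) and Hexa (1.88 and 3.01 CPM), both at very low levels, beside summed C1q macrophage markers of 4.43 and 7.28 CPM and heat shock RNA higher with STK (0.716% and 0.964% of UMIs), whose part was not tested. Ctsl, the member with its second highest level in these cells, read 546 and 544 CPM.

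Across classes, Gla read above its DMSO level in 11 of the 11 classes where it had 50 UMIs, Scarb2 in 13 of 14 (all but hepatocyte or tumour cells) and Atp6v0d1 in 14 of 15 (all but B cells). Tfeb read below it in 11 of 13, the others being migratory dendritic and hepatocyte or tumour cells. The classes of a library share its animals and its processing, so these counts are not independent. Gla, which is X-linked, read below equality within male C1q macrophages. With the stricter gate it also read below equality in non-classical monocytes (0.929). Ctsd was at least 1.5 times higher in 5 classes (C1q macrophages, classical and non-classical monocytes, type 1 dendritic and B cells) and lower in 1 (migratory dendritic cells), a call lost with the stricter gate, as were those of non-classical monocytes and B cells. Cd63 was higher in 2 (C1q macrophages and classical monocytes) and lower in 2 (plasmacytoid dendritic and regulatory T cells), both lost with the stricter gate, as was that of classical monocytes.

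Other genes of the lysosomal pathway were counted in the same way in C1q macrophages, where the background shares are the 5.48% and 5.62% given above. Of 17 other V-ATPase and assembly genes, 17 were measured, 0 were 1.5 times higher and 0 lower. The nearest to the threshold were Atp6ap2 (1.33) and Atp6v0b (1.28), and Atp6v1h read 0.983. Of 41 measured other lysosomal hydrolases and related soluble proteins, 5 were higher and 2 lower, among them Creg1 at 317 and 512 CPM (1.62). Gm2a, the activator that presents gangliosides to hexosaminidase, read 672 and 567 CPM (0.843). Of 25 measured other membrane proteins and transporters, 2 were higher and 0 lower: Gpnmb, a glycoprotein induced in lipid-laden macrophages, at 76.4 and 268 CPM (3.51, 3.09 to 4.01) and the tetraspanin Cd9 at 72.8 and 153 CPM (2.09). Cd82 (0.823) and Cln3 (0.896) read lowest among those at 50 CPM or more. Of 23 measured MiT/TFE factors and nutrient-signalling genes, 0 were higher and 1 lower: Flcn, a regulator of Tfeb and Tfe3, read 63.5 and 32.9 CPM (0.518, 0.422 to 0.634), while the autophagy receptor gene Sqstm1 read 468 and 630.2 CPM (1.35). Lamtor3 (0.794) and Map1lc3b (1.17) were the next in each direction. Of 23 measured sorting genes 1 was higher and 1 lower, and at 50 CPM or more Ap1s1 (1.47) and Vps26a (1.39) lay furthest up and Vps41 (0.930) and Gga1 (0.969) furthest down. Of 5 measured cathepsin inhibitors 2 were higher, including Serpinb6a at 122 and 199 CPM (1.63), and 0 were lower; Cstb read 1.08. The median log2 ratios were 0.070 for the V-ATPase list, 0.10 for the hydrolases, 0.098 for the membrane proteins, 0.046 for sorting, 0.26 for the inhibitors and -0.051 for the MiT/TFE list, against 0.25 for the 32 members.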

How the data were processed

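Single-cell RNA was measured in 2 libraries, 1 from DMSO-treated and 1 from STK-treated mice. The authors deposited UMI counts, not normalized, for each gene in each barcode. Cell Ranger 6.0.2 wrote them per the file headers, on GRCm38 (mm10) per the submitters' processing notes. The libraries held 11784 and 11672 barcodes and 79322966 and 81859811 UMIs. Cells with at least 500 UMIs, 250 genes and at most 10% mitochondrial UMIs were kept, which left out 632 and 826 barcodes. Doublets were treated by leaving out cells that met the gates of 2 lineages; the automatic Scrublet threshold marked 0 cells of the STK library, so a fixed score of 0.25 (396 and 425 cells) served only as an alternative.

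The members, the other gene lists and the gates were chosen with earlier results of these data known, and the gate thresholds were set after seeing the data. UMIs were summed per class and library and divided by the class total (CPM), with exact Poisson 95% intervals, and ratios carry exact conditional binomial intervals. A gene was called at 1.5-fold among genes with at least 50 UMIs over both libraries in the class; sums under 3 UMIs were set to 3. Shares of cells after thinning to 1000 UMIs are the expectation over all draws, with Clopper-Pearson intervals. PCR copies are collapsed by UMIs, and intervals and floors cover counting error only. The named genes are all members past 1.5-fold in C1q macrophages, classical monocytes and type 2 dendritic cells, each member in its highest class, and from each other list the 2 furthest from equality in each direction at 50 CPM or more, some of which are not reported here; other values that the text gives were chosen after they were seen. The ratio scripts were tested on simulated data. Alternatives were a stricter gate (the marker thresholds of the gates raised together), other filters and scalings, per-cell means, cells of one sex and no Scrublet doublets. Leaving out shared barcodes, and macrophages with Spp1, Arg1 or Kupffer markers, were alternatives chosen after seeing the data. Positions are from GENCODE and promoters from RefSeq. Software was Python 3.11.15, NumPy 2.4.6, SciPy 1.17.1, pandas 2.3.3, scanpy 1.11.5 and Matplotlib 3.10.9.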

Additional observations from a re-analysis of the deposited data

Results flagged for a closer look

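Cells that met no gate, counted with the NK-gated cells holding Cd3 RNA, were in no comparison. Yet the 32 genes made 1.04% of their UMIs in the DMSO and 1.09% in the STK library, above the level of every lymphoid class. Those cells had median depths of 2138 and 2286 UMIs, and no class was assigned to them.

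The summed share moved in opposite directions in some classes. It was 1.21 times higher in the STK library in C1q macrophages but 0.875 times the DMSO share in neutrophils, 0.929 in regulatory T cells and 0.949 in NK cells. In CD8 T cells it was 1.23 within female cells (78 and 577) and 0.958 within male cells (467 and 287). With a stricter gate regulatory T cells and NK cells read above equality, as did neutrophils by per-cell means. None of these differences was tested, since each class had 1 library per group.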

How the results depend on the processing

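No paired analysis was possible because each group had 1 library, and leaving out a replicate was not possible for the same reason. Of 337 values under alternatives, 286 moved by less than their counting interval (counts by less than 1.5 times), 46 moved further and 5 changed direction. These 337 values covered C1q macrophages, classical monocytes and type 2 dendritic cells only. The turns of direction given above for other classes, and for Gla and Tfeb in C1q macrophages, are not among the 5. In C1q macrophages the summed ratio read 1.39 within female cells and 1.09 within male cells, 1.19 with the stricter gate, without cells holding Spp1, Arg1 or Kupffer markers (an alternative chosen after seeing the data) and with CPM computed without hepatocyte, erythroid, mitochondrial, ribosomal, receptor and granule genes. Within female cells 14 members were higher, with a median log2 ratio of 0.45, and within male cells 1 was lower. In classical monocytes the summed ratio was 1.27 within female cells, 1.26 within male cells, with 9 members higher in the latter, and 1.14 with the stricter gate. In type 2 dendritic cells the members higher were 2 without Scrublet doublets, 3 within female cells and 0 within male cells. There 4 were lower within female cells and 1 with per-cell means, the per-cell summed ratio was 1.07, and the median turned to -0.045 within female cells. Among the other lists in C1q macrophages, the medians turned to -0.037 (V-ATPase), -0.015 (membrane proteins) and -0.033 (sorting) within male cells, and to -0.017 for membrane proteins without the Spp1, Arg1 or Kupffer marker cells. The cause was not tested. Atp6v0d2 in C1q macrophages read 1.42 as a mean of per-cell values, and Glb1 read 1.48 with the stricter gate. The 29 female DMSO C1q macrophages and the genes under 50 UMIs are where depth limits most; 17 members were not measured in B cells.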
